A study of Caenorhabditis elegans with 6 samples.

Results

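The lipid-binding protein (*lbp*) genes of *C. elegans*, *lbp-1* to *lbp-9*, were taken by their symbols from the deposited table of raw counts, which gave 9 genes of 46756 listed. Messenger RNA had been sequenced from whole hermaphrodites that had reached adulthood day 2. Of the 6 libraries, 3 were made from worms that carried more than 20 exophers each (high exopher libraries) and 3 from worms that carried fewer than 2 (low exopher libraries). Exophers are large vesicles that body wall muscle cells release. All worms were of strain ACH93, which is wild type in background and carries red and green reporters driven in body wall muscle by the *myo-3* promoter, and all were grown on *Escherichia coli* OP50. No treatment separated the groups, which were told apart by the exopher number scored. The submitters describe the samples within a group as coming from separate populations, and whether a high and a low library with the same replicate number share one is not stated.

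LBP proteins are the worm members of the family of fatty acid-binding proteins, small proteins that hold a lipid in the cavity of a beta barrel and carry it through water. In mammals, members of this family bring fatty acids to mitochondria, to membranes or to nuclear receptors. Some worm members carry a signal peptide and leave the cell that makes them, and others stay inside. LBP-1, LBP-2 and LBP-3 are secreted, and resemble a protein that the roundworm *Ascaris* places in the fluid around its embryo. LBP-3 is also known as a carrier that the intestine sends to neurons. LBP-8 moves lipid signals from the lysosome to the nucleus of intestinal cells, where the nuclear receptors NHR-49 and NHR-80 act on genes of fat breakdown and desaturation. The comparison made here sets the secreted members (*lbp-1*, *lbp-2* and *lbp-3*) beside the intestinal members (*lbp-6*, *lbp-7* and *lbp-8*). The remaining *lbp-4*, *lbp-5* and *lbp-9* were given to neither class. No sequence of these genes was used here.

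Total counts were between 65814796 and 70280441 in the high exopher libraries and between 60511481 and 72909583 in the low exopher libraries. The 9 *lbp* genes together took 0.128% ± 0.0194 of all counts in high and 0.121% ± 0.0125 in low exopher libraries (SD, n = 3 each). Counts were scaled to the libraries' effective sizes (normalized counts) and tested in edgeR by quasi-likelihood, with p adjusted after Benjamini and Hochberg over the 15883 genes that had enough counts, and a gene was called at an adjusted p below 0.05 with an absolute log2 fold change above 1. Fold changes are given as high over low throughout. Of the marker genes for cell types that a whole worm holds, all 9 for intestine, all 12 for body wall muscle and 14 of 16 for the early embryo had enough counts to be tested, and none was at 0 in all libraries. Sperm markers were between 589 and 880 summed normalized counts in high and between 1219 and 2490 in low exopher libraries, and 2 of 8 tested were called by edgeR, both lower (4 by DESeq2, 3 by limma-voom and 4 by edgeR with the replicate number as a block), while 2 of 8 hypodermis and 1 of 10 molting markers tested were called higher by each of these. In such libraries, fewer cells of a type and less RNA per cell cannot be told apart.

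The members form 3 neighbourhoods in the Ensembl release 115 annotation of WBcel235, and all 9 are protein-coding. The 3 secreted members lie side by side on the forward strand of the X chromosome, *lbp-3* (WBGene00002255) from 3257372 to 3258155, *lbp-1* (WBGene00002253) from 3259142 to 3259812 and *lbp-2* (WBGene00002254) from 3260610 to 3261470. No other gene lies in the 986 bases between *lbp-3* and *lbp-1* or in the 797 bases between *lbp-1* and *lbp-2*. *lbp-6* (WBGene00002258, from 6728296 to 6729376) and *lbp-5* (WBGene00002257, from 6731267 to 6732276) lie on the reverse strand of chromosome I. They have 1890 bases and 1 other protein-coding gene between them. *lbp-7* (WBGene00002259, from 13879552 to 13880213) and *lbp-8* (WBGene00002260, from 13890773 to 13891364) are on the forward strand of chromosome V, 10559 bases apart with 3 other protein-coding genes between them. *lbp-4* (WBGene00002256, from 7820578 to 7821477) and *lbp-9* (WBGene00021486, from 2068449 to 2069142) stand alone on the forward strand of chromosome V. The exons of each gene add up to between 481 and 759 bases. On the opposite strand, *mec-6* overlaps 35 exon bases of *lbp-6* and Y40B10A.9 overlaps 5 of *lbp-9*. Whether the counting used the strand is not stated in the sources, so reads from these bases cannot be assigned to either gene of a pair.

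To compare levels between members, normalized counts were divided by exon length in kb. *lbp-9* was the highest, with 74110 ± 11040 normalized counts per kb in high and 64420 ± 2692 in low exopher libraries (SD, n = 3 each). It lay above 99.3% of the genes tested. It made up 52.2% ± 4.50 of the summed level of the family in high and 46.9% ± 2.94 in low exopher libraries. *lbp-2* followed with 25930 ± 7021 per kb in high and 29860 ± 2524 in low, and *lbp-6* with 17020 ± 3096 in high and 19450 ± 5670 in low. *lbp-8* was the lowest, with 301 ± 243 per kb in high and 472 ± 179 in low exopher libraries, near the median of 401 over all genes tested. The means over all 6 libraries thus ran from 69270 per kb for *lbp-9* to 386 per kb for *lbp-8*.

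The order from the top was *lbp-9*, *lbp-2*, *lbp-6*, *lbp-1*, *lbp-3*, *lbp-4*, *lbp-5*, *lbp-7* and *lbp-8*. The lowest library of *lbp-9*, *lbp-4* and *lbp-7* was above the highest library of the next gene in this order. For the other neighbours the ranges over the 6 libraries overlapped, although within each library the order held in all 6, except that *lbp-3* was above *lbp-4* in only 4 of 6. Neither class formed a block, since *lbp-6* stood between the secreted *lbp-2* and *lbp-1*, and *lbp-7* and *lbp-8* stood at the bottom.

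**Figure D1:**
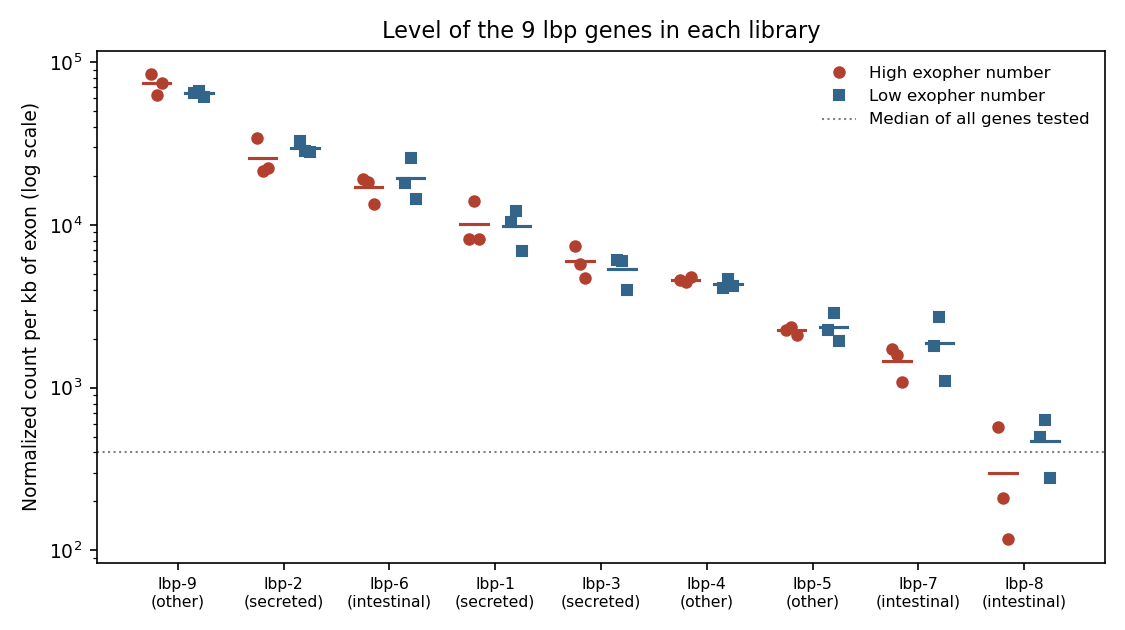
Normalized counts per kb of exon (log axis) of the 9 *lbp* genes, ordered by their mean, in the 3 high exopher libraries (red circles) and the 3 low exopher libraries (blue squares), with bars at the group means and a dotted line at the median of all genes tested. The levels of the 9 genes range from 386 to 69270 as means over 6 libraries, and the points of the 2 groups overlap for every gene.

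None of the 9 *lbp* genes was called with edgeR, beside 5.74% of all genes tested (2.95% higher and 2.78% lower). At an adjusted p below 0.05 with no minimum fold the count was also 0 of 9, beside 6.51% of all genes. At an unadjusted p below 0.05 it was 0 of 9 with edgeR, DESeq2's Wald test and limma-voom alike, beside 17.0% of all genes in edgeR. The groups overlapped in all 9 genes, while they did not overlap in 21.7% of all genes tested. Log2 fold changes lay between -0.65 for *lbp-8* and 0.20 for *lbp-9*, with a median of -0.070 over the 9 genes and -0.013 over all genes tested. Of the 9, 4 were above 0 and 5 below. The 95% intervals bound how large a difference these libraries allow. They lay inside a 2-fold change either way for 7 of 9 genes and inside a 1.5-fold change for 3 of 9, *lbp-4*, *lbp-5* and *lbp-9*. The intervals of *lbp-7* and *lbp-8* extended past a 2-fold decrease. In the fit blocked on replicate number the intervals were narrower, and 8 of 9 lay inside a 2-fold and 7 of 9 inside a 1.5-fold change. That of *lbp-8* still reached -1.76 on the log2 scale, and that of *lbp-2* (-0.46 to -0.0060) excluded 0, with an adjusted p of 0.193 from edgeR. A missing call therefore does not show equal expression.

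**Figure D2:**
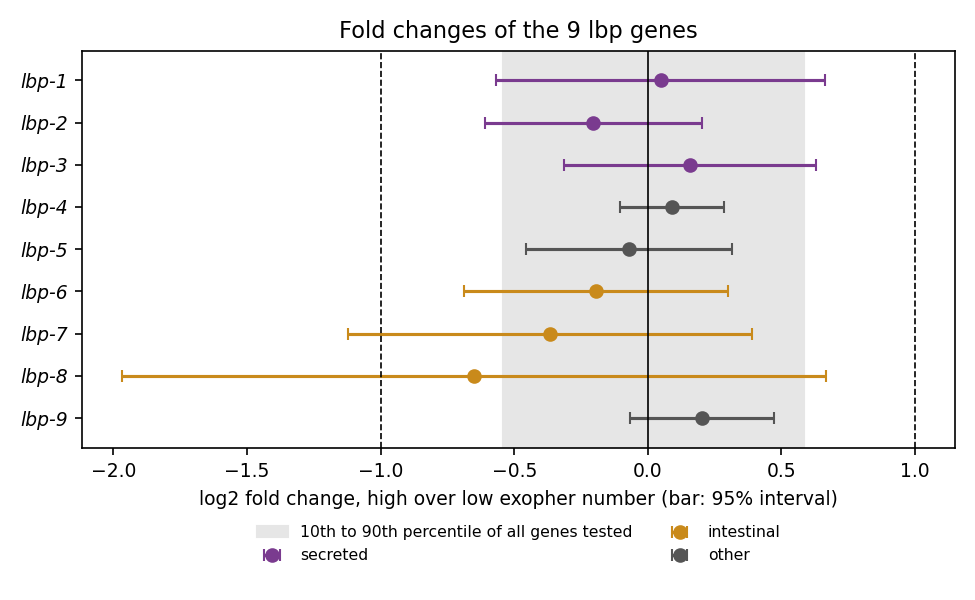
Log2 fold change of each *lbp* gene (point, high over low exopher number) with its 95% interval from edgeR (bar), coloured by class, over a grey band from the 10th to the 90th percentile of all genes tested (-0.54 to 0.59), with dashed lines at the study's limit of 1 either way. All intervals of this fit, which has no replicate block, include 0, and those of *lbp-7* and *lbp-8* cross the left dashed line.

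Among the secreted members, *lbp-2* had the highest counts. Its normalized counts were 25820, 16243 and 16982 in high exopher replicates 1, 2 and 3, against 24869, 21746 and 21385 in low exopher replicates 1, 2 and 3. High replicate 1 was above all low libraries and the other 2 high libraries were below them. The log2 fold change was -0.20 (95% interval -0.61 to 0.20, adjusted p = 0.690 from edgeR). Without high replicate 1 it was -0.45, with an adjusted p of 0.0626, the smallest found for any *lbp* gene in any alternative.

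*lbp-1*, which lies between the other secreted members on the X chromosome, had 4548, 7845 and 4568 normalized counts in high exopher libraries, against 5761, 6790 and 3855 in low exopher libraries. Replicate 2 was the highest of both groups. The spread within groups, an SD of 0.44 on the log2 scale, was larger than that of 97.4% of 3445 genes with a count within 2-fold of it. Its log2 fold change of 0.048 (interval -0.57 to 0.66, adjusted p = 0.963 from edgeR) was far smaller than this spread, and it was -0.26 without high replicate 2.

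*lbp-3*, the secreted carrier from intestine to neurons, had 4641, 3590 and 2959 normalized counts in high exopher libraries, against 3813, 3726 and 2492 in low exopher libraries. Replicate 1 was the highest and replicate 3 the lowest in both groups. This gave a log2 fold change of 0.16 (interval -0.31 to 0.63, adjusted p = 0.809 from edgeR). Although these 3 genes are neighbours, their libraries did not follow one order. The highest high exopher library was replicate 2 for *lbp-1* and replicate 1 for *lbp-2* and *lbp-3*.

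The summed normalized counts of 16 early embryo markers were 4844, 7035 and 4423 in high and 6050, 6388 and 5047 in low exopher libraries. Replicate 2 was the highest of both groups there, as for *lbp-1* but not for *lbp-2* or *lbp-3*. The summed intestine markers were highest in replicate 2 as well (34443 in high and 43493 in low), so the embryo and intestine sums shared this. The share of all genes tested that were highest in replicate 2 of both groups was not counted. None of the 14 embryo markers tested was called or had an unadjusted p below 0.05 with edgeR, DESeq2 or limma-voom. The 12 body wall muscle markers summed to between 151141 and 184194 in high and between 187373 and 208381 in low exopher libraries, and these sums did not overlap. Of the 12, 0 were called by edgeR, DESeq2 or limma-voom. At an unadjusted p below 0.05 were 6 of 12 in each, beside 17.0% of all genes tested in edgeR. The groups did not overlap in 6 of the 12 genes, beside 21.7% of all genes tested. The sums are led by the most abundant markers, and gene by gene 5 were above 0 and 7 below, with a median of -0.022. At an adjusted p below 0.05 from edgeR with no minimum fold, the myosin gene *myo-3* was higher (log2 fold change 0.70) and the paramyosin gene *unc-15* (-0.58) and the troponin C gene *pat-10* (-0.43) were lower. The part of embryos and muscle in the values of the secreted members was not tested.

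The intestinal members all had a log2 fold change below 0, and none passed the test. *lbp-6*, the most abundant of them, had 10108, 9702 and 7101 normalized counts in high exopher libraries, against 9567, 13519 and 7660 in low exopher libraries. Low replicate 2 stood above the other 5 libraries, and the rest overlapped. This gave a log2 fold change of -0.19 (interval -0.69 to 0.30, adjusted p = 0.772 from edgeR). Without low replicate 2 it was 0.038.

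*lbp-7*, which lies near *lbp-8*, had 890, 817 and 561 normalized counts in high exopher libraries, against 937, 1416 and 570 in low exopher libraries. It was the only member in which the high library was below the low one for all 3 replicate numbers, by 0.075, 0.79 and 0.023 on the log2 scale. The difference again rested on replicate 2. The log2 fold change was -0.37 (interval -1.12 to 0.39, adjusted p = 0.704 from edgeR), and -0.018 without low replicate 2.

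*lbp-8*, the lysosome-to-nucleus carrier, had the lowest counts and the largest spread. It was counted 328, 109 and 64 times in high exopher libraries, against 282, 321 and 129 times in low exopher libraries, or 304, 110 and 61.7 against 264, 336 and 148 normalized counts. High replicates 2 and 3 were below all low exopher libraries, while high replicate 1 was the second highest of the 6. The highest library was 5.45 times the lowest. The exact Poisson interval of the smallest count, 64, was 49.3 to 81.7 and covers counting error only, so counting error was small beside this range. The SD within groups, 0.93 on the log2 scale, was larger than that of 97.4% of 2638 genes with a count within 2-fold of it. The log2 fold change was -0.65 (interval -1.97 to 0.67, adjusted p = 0.698 from edgeR). It was -1.55 without high replicate 1 (adjusted p = 0.131) and -0.26 without high replicate 3 (adjusted p = 0.858), so that its size depended on which library was left out.

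The 9 intestine markers, such as the gut esterase gene *ges-1*, were also mostly on the lower side. The transcription factor gene *elt-2* was on the higher side (log2 fold change 0.13). The 9 markers summed to 31528, 34443 and 25936 normalized counts in high and 35718, 43493 and 35164 in low exopher libraries. These sums did not overlap, but they are led by the most abundant markers, such as *act-5*. Gene by gene, the groups did not overlap in 3 of the 9, beside 21.7% of all genes tested. Of the 9, 8 had a log2 fold change below 0, with a median of -0.28, and 0 were called by edgeR, DESeq2 or limma-voom. At an unadjusted p below 0.05 were 3 of 9 in each, beside 17.0% of all genes tested in edgeR. The part of the amount of intestinal RNA in the values of *lbp-6*, *lbp-7* and *lbp-8* was not tested.

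Of the members in neither class, *lbp-9* had the smallest unadjusted p of the family, 0.121. Its normalized counts were 47768, 35347 and 42281 in high exopher libraries, against 36496, 37765 and 34742 in low exopher libraries. High replicates 1 and 3 were above all low libraries and high replicate 2 was among them. Its log2 fold change was 0.20 (interval -0.067 to 0.47, adjusted p = 0.477 from edgeR), or 0.091 without high replicate 1 and 0.31 without high replicate 2.

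*lbp-4* was the steadiest member. It had 2716, 2643 and 2833 normalized counts in high exopher libraries, against 2445, 2759 and 2492 in low exopher libraries, a range of 1.16-fold over all 6. The SD within groups was 0.075 on the log2 scale, and only 24.5% of 3157 genes of similar count had a smaller one. The log2 fold change was 0.090 (interval -0.10 to 0.28, adjusted p = 0.722 from edgeR). *lbp-5*, which lies near *lbp-6*, had 1095, 1137 and 1013 normalized counts in high exopher libraries, against 1092, 1387 and 928 in low exopher libraries. The low exopher libraries enclosed the high ones, and the log2 fold change was -0.070 (interval -0.46 to 0.32, adjusted p = 0.907 from edgeR).

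The classes were then compared within each library, as the mean log2 normalized count of the 3 secreted members minus that of the 3 intestinal members. This difference was 2.54, 3.01 and 3.29 in high exopher replicates 1, 2 and 3, against 2.62, 2.14 and 2.77 in low exopher replicates 1, 2 and 3. High replicates 2 and 3 were above all low exopher libraries, and high replicate 1 was below 2 of them. The means were 2.95 ± 0.37 in high and 2.51 ± 0.33 in low exopher libraries (SD, n = 3 each), a difference of 0.44 that no test was applied to, since the members were chosen with results of these data known. It was 0.34 when *lbp-5* was counted with the intestinal members. By member, the high minus low difference of mean log2 counts was 0.037, -0.233 and 0.159 for *lbp-1*, *lbp-2* and *lbp-3*. For *lbp-6*, *lbp-7* and *lbp-8* it was -0.17, -0.297 and -0.885. The class difference thus came most from *lbp-8*, the member with the lowest counts and the largest spread. The median log2 fold change was 0.048 over the secreted and -0.37 over the intestinal members, beside -0.013 over all genes tested.

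*lbp-7* and *lbp-8* also shared the order of libraries of *lbp-6*. The order was taken from *lbp-6*, which therefore has it by definition. All 3 were ordered 1, 2, 3 from highest to lowest in the high exopher replicates and 2, 1, 3 in the low exopher replicates. No other *lbp* gene had this order, which 5.87% of all genes tested and 1 of 9 intestine markers, *ifc-2*, had as well. Being lowest in replicate 3 of both groups was more common. It held for 5 of 9 *lbp* genes (*lbp-3* and *lbp-5* to *lbp-8*), for 7 of 9 intestine markers and for 22.1% of all genes tested. Genes are not independent replicates, and these shares describe the 6 libraries.

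**Figure D3:**
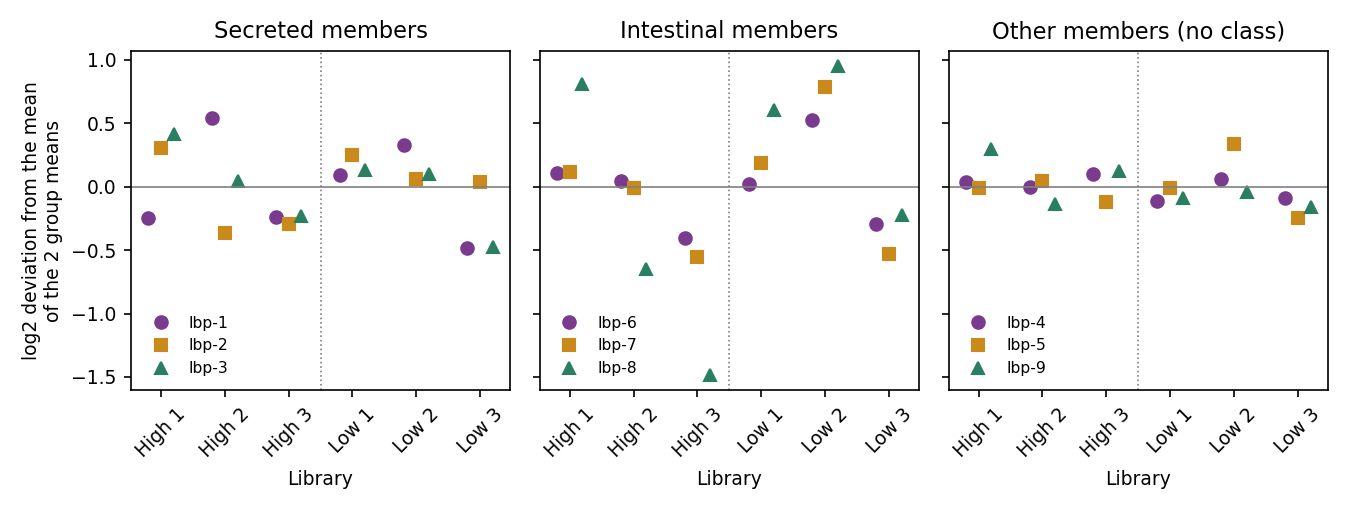
Log2 normalized count of each *lbp* gene in each library, as the deviation from the mean of its 2 group means, in panels for the secreted, the intestinal and the remaining members, with high exopher libraries left of the dotted line. The 3 intestinal genes are ordered alike within each group, and *lbp-8* spans from -1.48 in high replicate 3 to 0.95 in low replicate 2, while *lbp-4* stays between -0.11 and 0.099.

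The genes most like *lbp-9* across the 6 libraries were sought among the other 15882 tested, by Pearson's r of log2 normalized counts. The 5 highest were *com-1* (r = 0.999), *iff-1* (0.998), *rpb-6* (0.996), *mrpl-20* (0.996) and F02E9.1 (0.996), all with a Spearman's rho of 1. *iff-1* encodes a translation factor of the eIF5A family, *rpb-6* a subunit of RNA polymerase and *mrpl-20* a protein of the mitochondrial ribosome. Their log2 fold changes lay between 0.063 for *com-1* and 0.21 for F02E9.1 and none was called. With 6 libraries and so many genes, values of r near 1 are found for many patterns, and they are given as a description. Within the family, r with *lbp-9* was highest for *lbp-4* (0.61) and lowest for *lbp-1* (-0.35).

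Other genes that bind, carry or burn lipids were read beside the *lbp* genes. In each of these lists with 0 genes called by edgeR, limma-voom also called 0, and DESeq2 called 0 in all but the carnitine palmitoyltransferase list. The nuclear receptor genes that act with LBP-8 were not called. *nhr-49* had 6505, 7563 and 6828 normalized counts in high exopher libraries, against 7024, 7794 and 7229 in low exopher libraries, a log2 fold change of -0.077 (interval -0.26 to 0.10, adjusted p = 0.744 from edgeR). *nhr-80* had a log2 fold change of -0.24 (interval -0.70 to 0.21, adjusted p = 0.656 from edgeR). Over the list of these receptors, their partners and targets, 0 of 12 were called and 10 were below 0, with a median of -0.27. In this list 1 gene had an unadjusted p below 0.05 in edgeR, DESeq2 and limma-voom, and 4 had with the replicate block. The smallest unadjusted p in it was that of *fat-6*, a stearoyl-CoA desaturase gene, with 18733, 22206 and 14831 normalized counts in high exopher libraries, against 31170, 30720 and 19337 in low exopher libraries (log2 fold change -0.54, adjusted p = 0.224 from edgeR). Of the *lipl* genes for lysosomal lipases, *lipl-6* was the only one called of 7 tested. It had 222, 166 and 219 normalized counts in high exopher libraries, against 54.2, 64.9 and 54 in low exopher libraries, and rose by 1.81 on the log2 scale (interval 1.25 to 2.37, adjusted p = 0.0115 from edgeR). Its adjusted p was 0.0504 without high replicate 1 and 0.0530 without high replicate 3. *lipl-4*, the lipase gene whose activity feeds LBP-8 and LBP-3, had 77.0, 115 and 90.6 normalized counts in high exopher libraries, against 147, 126 and 108 in low exopher libraries (log2 fold change -0.43, adjusted p = 0.516 from edgeR), and the libraries overlapped.

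Genes of secreted lipid carriers of other families and of yolk assembly had mostly negative fold changes. In the list of the yolk lipoprotein genes, *dsc-4* and *rme-2*, all 8 log2 fold changes were below 0, with a median of -0.45, and 0 were called. At an unadjusted p below 0.05 were 6 of them in edgeR, beside 17.0% of all genes tested. Of all 15883 genes tested, 8380 had a log2 fold change below 0. That of *rme-2*, the yolk receptor gene, was only -0.057 (interval -0.415 to 0.30, adjusted p = 0.92 from edgeR), and its groups overlapped. *dsc-4*, the gene of the transfer protein that loads lipid onto yolk, had 1632, 1788 and 1551 normalized counts in high exopher libraries, against 2590, 2488 and 2138 in low exopher libraries. Its log2 fold change of -0.54 (interval -0.80 to -0.28, adjusted p = 0.0303 from edgeR) passed the limit on the adjusted p but not that on the fold. With all libraries kept, the adjusted p was 0.000154 from DESeq2, 0.0368 from limma-voom and 0.00848 from edgeR with the replicate block. With 1 library left out, it was between 0.0400 and 0.115 from edgeR. Of the 8 *far* genes, which encode secreted fatty acid- and retinol-binding proteins, 6 were below 0 and 0 were called. At an unadjusted p below 0.05 was 1 of them in edgeR and limma-voom, 2 in DESeq2 and 4 with the replicate block. *far-2* was the most abundant of them in counts, with 151639, 120359 and 135343 normalized counts in high exopher libraries, against 217821, 161643 and 189033 in low exopher libraries, which did not overlap (log2 fold change -0.48, adjusted p = 0.104 from edgeR).

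Among intracellular carriers and enzymes, 0 of 6 genes for acyl-CoA-binding proteins were called, with a median of -0.0080. In edgeR, *acbp-4* had the only unadjusted p below 0.05 of that list, beside 0 genes in DESeq2, 1 in limma-voom and 2 with the replicate block. Raw counts of *acbp-4* were low, at 13, 13 and 10 in high exopher libraries, against 30, 17 and 19 in low exopher libraries (log2 fold change -0.95, adjusted p = 0.231 from edgeR). All 12 peroxisomal beta-oxidation genes were below 0, with a median of -0.36, and 0 were called. At an unadjusted p below 0.05 were 4 of them in edgeR and limma-voom, 7 in DESeq2 and 9 with the replicate block. Of all genes tested, 17.0% were below that limit in edgeR. *acox-1.5*, an acyl-CoA oxidase gene, had 538, 745 and 688 normalized counts in high exopher libraries, against 1106, 1469 and 930 in low exopher libraries (log2 fold change -0.83, adjusted p = 0.0589 from edgeR). For lipid droplets, 0 of 7 genes were called (2 at an unadjusted p below 0.05). *dgat-2*, a gene of triglyceride synthesis, had 842, 815 and 537 normalized counts in high exopher libraries, against 1460, 1056 and 1361 in low exopher libraries (log2 fold change -0.82, adjusted p = 0.0638 from edgeR). Of the 6 carnitine palmitoyltransferase genes, 0 were called by edgeR (1 at an unadjusted p below 0.05) and 1 by DESeq2, *cpt-3* (adjusted p = 0.0236). *cpt-3* had 43.6, 123 and 94.5 normalized counts in high exopher libraries, against 637, 105 and 236 in low exopher libraries (log2 fold change -1.91, adjusted p = 0.168 from edgeR), and without low replicate 1, which held the highest value, the log2 fold change was -0.98 (adjusted p = 0.507 from edgeR). Without low replicate 2 it was -2.34 (adjusted p = 0.0390), which passed both limits. With the replicate number as a block, *far-2*, *fat-6*, *dgat-2* and *acox-1.5* had adjusted p values of 0.00638, 0.00615, 0.0305 and 0.0129 from edgeR. From DESeq2 these were 0.00999, 0.0975, 0.00204 and 0.00243, and from limma-voom all 4 were above 0.05. None of the 4 genes passed the limit on the fold in any of these fits.

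**Figure D4:**
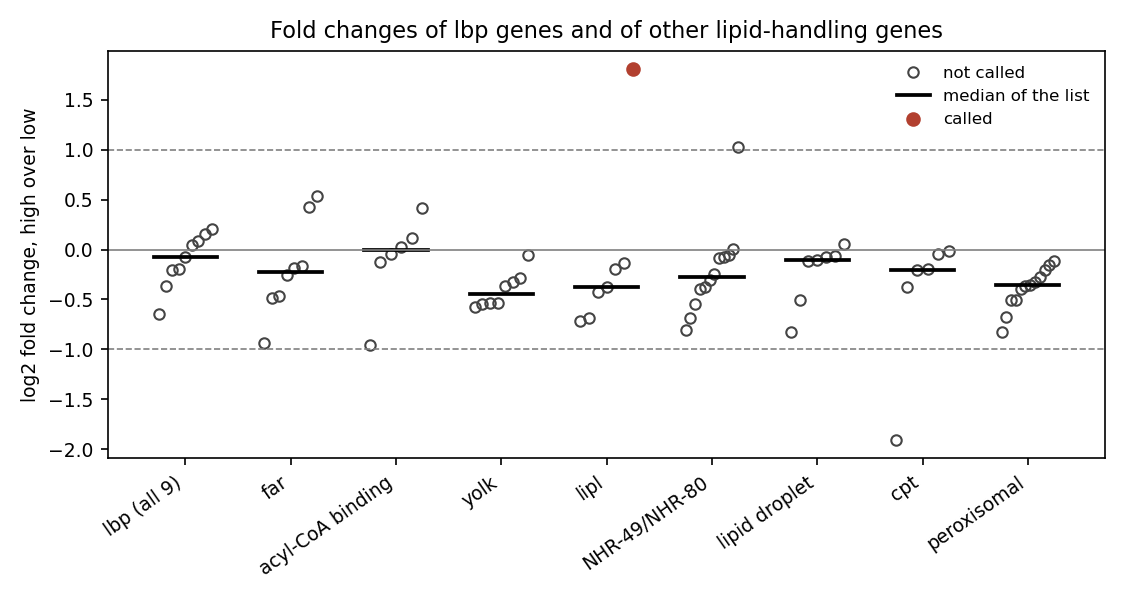
Log2 fold change (high over low exopher number) of the 9 *lbp* genes and of the tested genes in 8 other lists of lipid-handling genes, each point 1 gene, with a bar at the median of each list and dashed lines at 1 either way. The only filled point is *lipl-6* at 1.81, and the median is -0.070 for *lbp* and between -0.45 and -0.0080 for the other lists.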

How the data were processed

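The authors trimmed paired-end reads with Trimmomatic 0.36, aligned them with STAR 2.5.2b to the Ensembl genome of the worm (release not stated) and counted them with featureCounts (Subread 1.5.2), keeping reads with a single alignment in exons. They deposited raw counts per gene, the unit used here. Their second table, of scaled values, was not used.

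The tests were run in edgeR 4.0.16 under R 4.3.3 (filterByExpr, TMM, robust quasi-likelihood F test of high against low, no covariate). The standard error is the log2 fold change over the square root of F, and 95% intervals use the fit's degrees of freedom. DESeq2 1.42.0 and limma 3.58.1 (voom) were alternatives, as were DESeq2 size factors, no filter, a block for replicate number, and leaving out libraries in turn. Log2 values of single libraries had 0.5 added. The methods were tested on simulated data. The members, lists and rules were chosen with earlier results of these data known. Named are all members, and from each list the called genes or else the one with the smallest p, with *nhr-49*, *nhr-80*, *lipl-4* and the marker genes added after their values were seen. The 5 genes most like the member with the smallest p are named too. Of the list genes, 2 symbols (*acbp-2* and *bus-8*) matched no gene.

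Replicate pairs within a group differed beyond sampling noise (chi-square per gene between 42.0 and 90.5). Across genes, the deviations from the group means of same-numbered high and low libraries correlated at 0.282, 0.259 and 0.345, and those of differently numbered ones between -0.172 and -0.119. The deviations of a gene cancel out within each group by construction, so the negative values are not independent of the positive ones. Because of the positive correlations, the numbers, given in the sample titles, were used as a block in an alternative fit. The main fit had no block. It called 911 genes, and the blocked fit called 1266. An exact permutation test of 3 libraries against 3 cannot give a p below 0.1, so none is reported.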

Additional observations from a re-analysis of the deposited data

How the results depend on the processing

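The count of *lbp* genes called was 0 under each of the 12 alternatives run. With the replicate block, *lbp-2* had a log2 fold change of -0.23 and an adjusted p of 0.193 from edgeR. The count at an unadjusted p below 0.05 was 1 with that block, 2 without high replicate 1, and 1 without high replicate 2 or without low replicate 3. In the main fit 17.0% of all genes tested were below that limit, and the share in these other fits was not counted. Of 99 log2 fold changes of members under the alternatives, 93 kept their direction, 6 reversed and none passed the thresholds. With libraries left out in turn, the log2 fold changes ranged from -0.26 to 0.22 for *lbp-1*, from -0.038 to 0.30 for *lbp-3*, from -0.20 to 0.081 for *lbp-5* and from -0.36 to 0.038 for *lbp-6*. The difference between the secreted and the intestinal members ranged from 0.25 to 0.64. All genes called numbered 911, and between 759 and 1266 under the other settings that kept every library. Leaving out a library gave 5, 361 and 64 without high replicates 1, 2 and 3, and 540, 1128 and 568 without low replicates 1, 2 and 3. The cause was not tested. The spread between libraries, widest for *lbp-8*, and the 3 libraries per group limit what could be detected.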
